A study of Mus musculus with 12 samples.

Results

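The IL-6, IL-12 and IL-10 type cytokines described here are the products of 10 genes: Il6, Lif and Osm of the IL-6 family, Il12a, Il12b, Il23a, Il27 and Ebi3 of the IL-12 family, Il10, and Il15. They were chosen by name, and all 10 were found among the 41325 genes of the deposited tables. RNA was sequenced from IMG cells, an immortalised microglial line of mouse origin (strain C57Bl6/J, wild type), all of the same passage, after 8 h of treatment. There were 3 groups of 4 libraries each, called fAb, oAb and scramble. fAb and oAb are amyloid beta preparations, and scramble is the control. The design text pairs the word oligomeric with fAb and the word fibrillar with oAb, so both are given here by their label alone. No label states that the 4 libraries of a group come from different cultures. The p-values therefore speak only of the spread among these libraries, and that spread could be technical.

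These cytokines are mostly helical proteins that signal through receptors coupled to the JAK kinases and STAT transcription factors. IL-6, LIF and oncostatin M share the receptor chain gp130, the product of Il6st. IL-12 family cytokines are heterodimers: the p40 chain (Il12b) joins the p35 chain (Il12a) in IL-12 and the p19 chain (Il23a) in IL-23, and the p28 chain (Il27) joins EBI3 in IL-27. IL-10 restrains inflammatory activation of macrophages and microglia, and IL-15, bound to its receptor alpha chain, is presented to lymphocytes.

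Promoter sequences are shown for 4 members that had counts in treated libraries, because NF-kB, AP-1 and C/EBP factors are known regulators of cytokine genes. RefSeq promoter entries (GRCm38.p6) were matched for 5 of the 10 members, and the window searched ran from 250 bases before to 50 bases after the start. The 250 bases before the start are given 5′ to 3′, all on the plus strand, for Il6 (chr5:30012864-30013113), Lif (chr11:4257318-4257567), Ebi3 (chr17:55952373-55952622) and Il12b (chr11:44399813-44400062). Capitals mark matches on either strand to GGG, any 5 bases, then CC, a loose form of the NF-kB motif, with overlapping matches run together.
Il6: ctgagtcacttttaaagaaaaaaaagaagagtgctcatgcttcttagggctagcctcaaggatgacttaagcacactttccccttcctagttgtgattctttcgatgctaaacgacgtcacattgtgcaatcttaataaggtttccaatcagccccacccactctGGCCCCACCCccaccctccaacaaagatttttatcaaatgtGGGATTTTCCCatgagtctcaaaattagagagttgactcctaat
Lif: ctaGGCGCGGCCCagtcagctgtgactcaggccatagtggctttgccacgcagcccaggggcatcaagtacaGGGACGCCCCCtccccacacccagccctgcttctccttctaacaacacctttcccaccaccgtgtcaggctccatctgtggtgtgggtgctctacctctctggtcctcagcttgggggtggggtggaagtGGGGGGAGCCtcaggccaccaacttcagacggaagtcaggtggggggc
Ebi3: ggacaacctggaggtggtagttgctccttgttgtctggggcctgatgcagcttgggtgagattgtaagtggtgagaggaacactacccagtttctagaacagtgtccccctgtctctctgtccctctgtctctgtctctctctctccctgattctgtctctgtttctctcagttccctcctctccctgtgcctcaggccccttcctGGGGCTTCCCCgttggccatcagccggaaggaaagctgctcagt
Il12b: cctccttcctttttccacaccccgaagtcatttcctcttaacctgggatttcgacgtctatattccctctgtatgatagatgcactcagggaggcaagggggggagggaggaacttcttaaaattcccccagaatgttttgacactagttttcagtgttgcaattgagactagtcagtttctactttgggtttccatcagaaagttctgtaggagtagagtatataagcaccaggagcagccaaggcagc

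The Il6 promoter held the NF-kB letters at -44 to -35 and -43 to -34, which are overlapping matches on opposite strands, and at -85 to -76. It also held the AP-1 letters TGANTCA at -249 to -243 and the C/EBP letters TTGCNNAA at -128 to -121. Lif held the AP-1 letters at -228 to -222. Il12a, also matched, had 2 promoter entries but no count in any library, and its sequence is not shown. Its entry 2 held the NF-kB letters at -113 to -104 and -112 to -103, which overlap, and at 18 to 27 after the start. None of the 6 motifs searched was found in the Il12b window. The other 3 motifs were an interferon response form (GAAA, any 2 bases, then GAAA), a STAT form (TTCNNNGAA) and a TATA form (TATAAA), and none of them was found in the Il6, Lif or Ebi3 windows either. Both strands were read in each case. Of 32851 promoters of the same length, 50.8% held the NF-kB letters, 7.81% the AP-1 letters, 10.8% the C/EBP letters, 3.44% the interferon response form, 8.3% the STAT form and 13.6% the TATA form. A match is a description of letters and no measurement of binding.

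Libraries held between 13638721 and 18124419 counts, with between 13449 and 13948 genes detected. The 8 microglia and macrophage markers (Csf1r, Ptprc, Itgam, Adgre1, Aif1, Cd68, Tyrobp and Spi1) all had counts in each group, and their summed level was 3186 to 3560 counts scaled to library size (CPM) in fAb, 3301 to 3705 CPM in oAb and 3337 to 4064 CPM in scramble libraries. Singly, 2 of these 8 were called higher and 3 lower for fAb, and 2 higher and 2 lower for oAb (edgeR). Among all tested genes 56.3% were called in either direction for fAb and 52.2% for oAb. The log2 fold changes of Adgre1 were 1.04 for fAb and 0.93 for oAb, and those of Tyrobp -0.62 and -0.60. The lists of markers of other cell types held both silent and moving genes. Of the 6 T cell markers Cd3e, Cd3d, Cd3g and Cd8a had no count in any library, while Lck, a kinase gene, was higher at 9.28 ± 0.684 CPM in fAb and 9.82 ± 1.2 CPM in oAb, against 2 ± 0.541 CPM in scramble libraries (SD, n = 4 each, adjusted p = 9.9e-06 for fAb and 1.28e-05 for oAb, edgeR). Cd4 went the other way, at 0 to 3 counts in fAb, 0 to 1 in oAb and 5 to 6 in scramble libraries. Its counts were too low to be tested. The T cell list summed to 8.52 to 10.2 CPM in fAb, 8.73 to 11.2 CPM in oAb and 1.75 to 3.04 CPM in scramble libraries. Of the 4 oligodendrocyte markers Mog and Olig2 had no count, while Mbp, a myelin gene, was lower at 48.2 ± 2.44 CPM in fAb and 45.1 ± 2.71 CPM in oAb, against 112 ± 14.8 CPM in scramble libraries (adjusted p = 1.6e-05 and 1.16e-05). That list summed to 46.1 to 51.6 CPM in fAb, 43.4 to 49.1 CPM in oAb and 91.1 to 125 CPM in scramble libraries. Of the 6 endothelial and fibroblast markers Cldn5 and Pdgfra had no count, while Dcn, a matrix proteoglycan gene, had 165 counts over the fAb libraries, 170 over the oAb libraries and 1 over the scramble libraries. Their sum was 2.37 to 3.59 CPM in fAb, 3.13 to 3.94 CPM in oAb and 0.0602 to 0.31 CPM in scramble libraries. The B cell gene Pax5 had 32 counts over the fAb libraries, 31 over the oAb libraries and none in scramble, and the neuron gene Tubb3 had 9 in fAb, 8 in oAb and none in scramble, while Cd79a, Rbfox3, Syt1 and Snap25 had no count in any library. The B cell, dendritic cell, neutrophil, astrocyte and neuron lists reached at most 0.918 CPM in any library, and Ly6g, S100a9, Mpo and Aqp4 had no count. Mitochondrial genes took 2.73 to 2.94% of counts in fAb, 2.73 to 3.37% in oAb and 4.18 to 4.94% in scramble libraries. The part of these differences in the results was not tested. Scramble library 3 stood apart: its correlation with the other controls was between 0.933 and 0.960, and ribosomal protein genes took 11.1% of its counts, against 6.71 to 7.1% in scramble 1, 2 and 4. A second split, into 2 sets, followed the share of Timm23 among counts of Timm23 and its near copy Gm10273. This share was 94.6 to 98.3% in oAb 1 and 2 and scramble 2, 3 and 4, and 17.5 to 38.5% in all fAb libraries, oAb 3 and 4 and scramble 1. What the sets stand for is not given in the labels.

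Among the IL-6 family ligands, Il6 was nearly silent in control cells and abundant after either preparation. Il6 (chromosome 5, 30013114 to 30019981, plus strand, mm10), the founding member and an inducer of the acute phase response, had 69.1, 74.3, 55.8 and 59.8 TPM (transcript level scaled by length and depth) in fAb libraries. In oAb libraries Il6 was at 63.9, 61.6, 69.2 and 67.6 TPM. In scramble libraries it was listed at 0, 0.0804, 0 and 0 TPM. These values rest on 760 to 1095 counts per fAb library and 776 to 982 counts per oAb library, against 1 count over the 4 controls, so the treated and control groups did not overlap. Groups lay apart and higher in CPM for 27.4% of tested genes for fAb and 26.2% for oAb. The ratio of counts, scaled to library size, was 3663 for fAb over scramble with an exact 95% counting interval of 657 to 144723, and 3937 (706 to 155542) for oAb over scramble. Il6 rose in both comparisons in edgeR's quasi-likelihood test, with adjusted p = 5.63e-09 for fAb and adjusted p = 3.91e-09 for oAb. It passed the filter on low counts only through the treated libraries, so it had to differ to be tested. In a bulk sample, more RNA per cell and more cells that carry it cannot be told apart.

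Osm and Lif, which lie next to each other on chromosome 11, also rose, from different control levels. Osm (4236420 to 4241026, plus strand), encoding oncostatin M, had 19.3, 18.6, 17.4 and 17.1 TPM in fAb libraries. Osm had 18.2, 17.1, 16.7 and 14.2 TPM in oAb libraries. It had 5.57, 4.73, 3.65 and 3.98 TPM in scramble libraries, so a control transcript was present in each library and no treated library reached down to it. The log2 fold change of Osm was 2.15 ± 0.11 (SE, adjusted p = 3.91e-07, edgeR) for fAb and 2.07 ± 0.13 (adjusted p = 1.44e-06) for oAb, the smallest errors among the members.

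Lif (4257557 to 4272514, plus strand), encoding leukemia inhibitory factor, was far lower in level. It had 25, 26, 16 and 19 counts in fAb libraries and 16, 16, 19 and 17 counts in oAb libraries. It had 3, 1, 1 and 0 counts in scramble libraries, again with no overlap. Its mean level was 0.832 ± 0.169 TPM in fAb, 0.694 ± 0.0446 TPM in oAb and 0.0516 ± 0.0506 TPM in scramble libraries (SD, n = 4 each). Lif passed the filter only through the treated libraries, so it had to differ to be tested. Its log2 fold change was 3.99 ± 0.45 for fAb (adjusted p = 6.37e-05, edgeR) and 3.77 ± 0.45 for oAb (adjusted p = 8.98e-05). Since scramble 1 held 3 of the 5 control counts, the size depends on it. Without scramble 1 the values were 4.69 for fAb and 4.48 for oAb, both past the threshold. Within the library set of scramble 1, the only control there, they were 3.03 and 2.87.

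**Figure D1:**
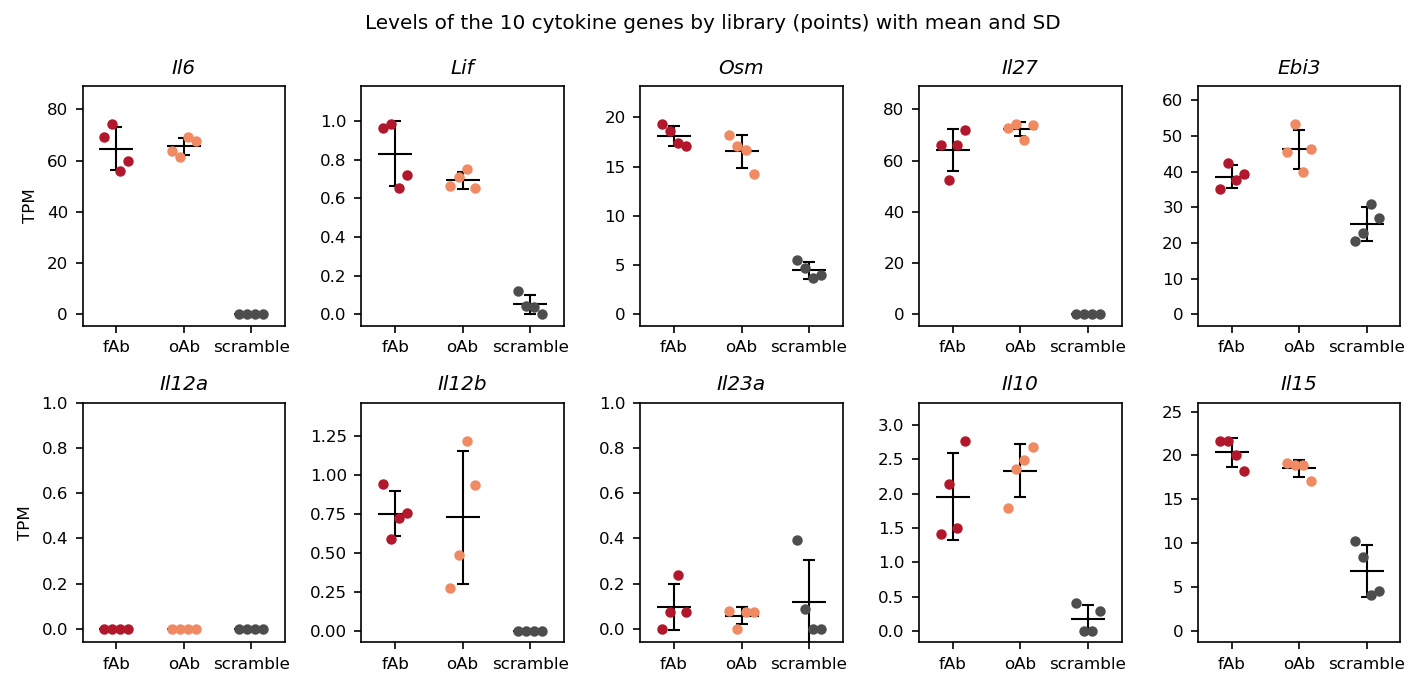
TPM of the 10 cytokine genes in each library (points), with the mean (bar) and SD of the 4 libraries of fAb, oAb and scramble, each panel on its own linear axis. Il6 lies between 55.8 and 74.3 TPM in the 8 treated libraries and at or near 0 in scramble, while Ebi3 is present in scramble at 20.6 to 31 TPM.

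Of the IL-12 family, both chains of IL-27 were present after treatment, but only Ebi3 was present before it. Il27 (chromosome 7, 126589010 to 126594941, minus strand), the p28 chain, had 66.1, 52.3, 65.9 and 71.8 TPM in fAb libraries. Il27 had 72.7, 74.2, 68.1 and 73.8 TPM in oAb libraries, against 0.172, 0.382, 0 and 0 TPM in scramble libraries. The control values stand for 3 counts in all, and the treated values for 324 to 445 counts per fAb library and 393 to 451 per oAb library. The scaled count ratio was 506.1 for fAb over scramble (95% counting interval 173 to 2457) and 605.8 (207 to 2941) for oAb over scramble. Il27 rose with adjusted p = 9.32e-08 for fAb and adjusted p = 3.05e-08 for oAb (edgeR). Like Il6, Il27 passed the filter only through the treated libraries and had to differ to be tested. Over 10.1% of its exon length it overlaps Apobr on the opposite strand, which averaged 175 TPM in fAb, 174 TPM in oAb and 76.3 TPM in scramble libraries. Whether counting used the strand is not given in the sources used. Il27 was at 0 counts in 2 controls in which Apobr had at least 1478 counts. Whether reads of Apobr enter the Il27 counts was not tested.

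Ebi3 (chromosome 17, 55952640 to 55957022, plus strand), the partner chain, was the member with the highest control level. It had 35, 42.4, 37.6 and 39.4 TPM in fAb libraries. It had 45.4, 53.3, 39.9 and 46.3 TPM in oAb libraries, and 20.6, 22.7, 31 and 27 TPM in scramble libraries. No treated library fell below a control on the TPM scale. On the CPM scale normalised by the trimmed mean of M values (TMM), fAb overlapped the controls, since fAb 1 was at 13.9 CPM and scramble 3 at 14.7 CPM. The log2 fold change was 0.71 ± 0.22 for fAb (adjusted p = 0.0208, edgeR) and 1.02 ± 0.22 for oAb (adjusted p = 0.00363). The fAb call was lost with upper quartile scaling (0.52, adjusted p = 0.0634), without fAb 2 (0.67, adjusted p = 0.0529), without fAb 4 (0.68, adjusted p = 0.0501) and without scramble 2 (0.60, adjusted p = 0.0627). Within the library set of scramble 1, the only control there, the log2 fold change for fAb was 1.22. Ebi3 overlaps the opposite-strand gene Gm16712 over 23.4% of its exon length, and that gene had 15 to 24 counts per fAb library, 14 to 23 per oAb library and 2 to 6 per scramble library, so the counts of Ebi3 are uncertain.

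The balance of the IL-27 chains did not differ past the threshold between the treatments. The ratio of Ebi3 to Il27 on the TPM scale was 0.53, 0.811, 0.57 and 0.549 in fAb libraries. In oAb libraries it was 0.624, 0.718, 0.585 and 0.628, so the p28 transcript exceeded its partner in each of the 8 treated libraries. The mean log2 ratio was -0.72 ± 0.28 in fAb and -0.65 ± 0.12 in oAb libraries (SD, n = 4 each), a difference of -0.07 (exact permutation test, two-sided, p = 0.629, where the smallest possible is 0.0286). In scramble libraries Il27 was at or near 0 and no ratio is given.

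The remaining IL-12 family genes were low or absent. Il12b (chromosome 11, 44400063 to 44414033, plus strand), the p40 chain shared by IL-12 and IL-23, had 11, 7, 8 and 9 counts in fAb libraries. It had 3, 5, 14 and 11 counts in oAb libraries and no count in any scramble library. It was therefore at least 11.45-fold higher in fAb and at least 12.04-fold higher in oAb, where the controls are set at a floor of 3 counts in all. Il12b did not pass the filter on low counts. An exact permutation test of its CPM gave p = 0.0286 in each comparison, two-sided, the smallest value that 4 against 4 libraries can give. Any gene whose groups do not overlap reaches that value. In the higher direction this held for 27.4% of tested genes for fAb and 26.2% for oAb. Without a filter, edgeR gave Il12b adjusted p = 0.00036 for fAb and adjusted p = 0.00197 for oAb.

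The partners of p40 were at or near 0 in all groups. Il12a (chromosome 3, 68690644 to 68698547, plus strand), the p35 chain, had no count in any of the 12 libraries, which allows a level of up to 0.0431 CPM in fAb, 0.0466 CPM in oAb and 0.0513 CPM in scramble, for counting error only. Il23a (chromosome 10, 128296139 to 128298752, minus strand), the p19 chain, had 0, 1, 3 and 1 counts in fAb libraries, 1, 0, 1 and 1 in oAb libraries and 5, 1, 0 and 0 in scramble libraries. The 3 groups overlapped, 5 of the 6 control counts came from scramble 1, and at this depth a difference was not detectable.

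Il10 (chromosome 1, 131019845 to 131024974, plus strand), the anti-inflammatory member, rose but stayed low in level. It had 11, 17, 11 and 22 counts in fAb libraries and 13, 16, 19 and 21 in oAb libraries. In scramble libraries it had 3, 0, 0 and 2 counts, and no control reached a treated library. Mean levels were 1.95 ± 0.632 TPM in fAb, 2.33 ± 0.381 TPM in oAb and 0.174 ± 0.206 TPM in scramble libraries (SD, n = 4 each). Il10 passed the filter only through the treated libraries, so it had to differ to be tested. Its log2 fold change was 3.50 ± 0.60 for fAb (adjusted p = 0.000979, edgeR) and 3.79 ± 0.55 for oAb (adjusted p = 0.000334). It was 4.20 and 4.51 without scramble 1, both past the threshold. Within the library set of scramble 1, the only control there, it was 2.54 and 3.02.

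Il15 (chromosome 8, 82331632 to 82403222, minus strand), a growth factor for natural killer and memory T cells, was present in control cells and rose. It had 21.7, 21.6, 20 and 18.2 TPM in fAb libraries and 19.2, 18.9, 18.9 and 17.1 TPM in oAb libraries. In scramble libraries it had 10.3, 8.38, 4.13 and 4.51 TPM, a wider relative spread than in either treatment but with no overlap. The log2 fold change was 1.74 ± 0.22 for fAb (adjusted p = 0.000131, edgeR) and 1.65 ± 0.22 for oAb (adjusted p = 0.000205).

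Against scramble, 7 of the 10 members passed the filter and each of these 7 was called higher for fAb, where 27.6% of 11074 tested genes were called higher and 56.3% were called in either direction. The same 7 of 10 were called higher for oAb, where 25.2% of 11033 tested genes were called higher and 52.2% in either direction. Il6, Il27, Il10 and Lif passed the filter only through the treated libraries, so they had to differ to be tested, and the count is only a description. The 2 comparisons share the scramble libraries. The other 3 members are Il12b, with counts in the treated libraries alone, Il23a, with a few counts in each group, and Il12a, with none.

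**Figure D2:**
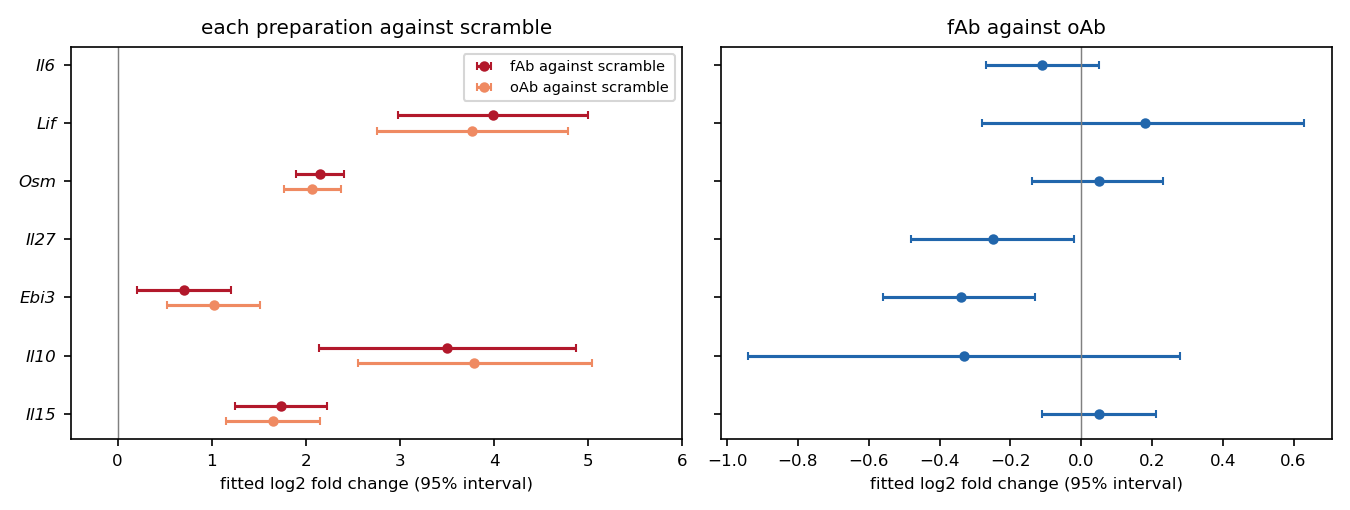
Fitted log2 fold changes with 95% intervals for the 7 tested cytokine genes, for fAb and oAb against scramble (left) and fAb against oAb (right), with a line at 0 for no difference. Il6 and Il27 are left out on the left because their controls held 1 and 3 counts. Intervals on the left lie above 0, and the largest separation on the right is that of Ebi3, at -0.34.

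Setting the preparations side by side, no member differed past the threshold. In fAb against oAb 0 of 10878 genes were called by edgeR (0%), with 1391 genes (12.8%) at an unadjusted p under 0.05 and 16 genes called by DESeq2, none of them a member. Il6 had a log2 difference of -0.11 (95% interval -0.27 to 0.05, adjusted p = 0.513), Osm 0.05 (-0.14 to 0.23, adjusted p = 0.821) and Il15 0.05 (-0.11 to 0.21, adjusted p = 0.773). These intervals are narrow beside the rise over scramble. Those of Il10 (-0.33, from -0.94 to 0.28, adjusted p = 0.594) and Lif (0.18, from -0.28 to 0.63, adjusted p = 0.727) are wide, and a p above the threshold does not show that the preparations act alike.

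The IL-27 chains were the members with the lowest p in this comparison. Ebi3 was at 13.9 to 16.8 CPM in fAb and 17.6 to 23.2 CPM in oAb libraries, with no overlap, where 6.31% of tested genes had groups that did not overlap. Its log2 difference was -0.34 (95% interval -0.56 to -0.13, unadjusted p = 0.00487, adjusted p = 0.375, edgeR). On the TPM scale the Ebi3 groups overlapped. Il27 had a log2 difference of -0.25 (-0.48 to -0.02, adjusted p = 0.375), with 3 of 4 fAb libraries below every oAb library in CPM. Neither passed after adjustment. Il12b averaged 0.525 ± 0.102 CPM in fAb and 0.545 ± 0.325 CPM in oAb libraries (SD, n = 4 each, exact permutation p = 0.943).

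By length-scaled level, the order of the members was close to the same in both treatments and unlike that of the controls. In fAb libraries Il6 (64.8 ± 8.46 TPM) and Il27 (64 ± 8.28 TPM) led and overlapped, followed by Ebi3 (38.6 ± 3.13 TPM), then Il15 (20.4 ± 1.62 TPM) and Osm (18.1 ± 0.998 TPM), which overlapped. In oAb libraries Il27 (72.2 ± 2.8 TPM) and Il6 (65.6 ± 3.45 TPM) overlapped at the top, followed by Ebi3 (46.2 ± 5.51 TPM), and Il15 (18.5 ± 0.943 TPM) and Osm (16.5 ± 1.69 TPM) overlapped again. In scramble libraries Ebi3 led (25.3 ± 4.66 TPM), above Il15 (6.84 ± 3.02 TPM) and Osm (4.48 ± 0.853 TPM), which overlapped. Errors are SD over 4 libraries. Il10 came next in each treatment, and Lif and Il12b followed it with overlapping levels.

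The summed level of the 10 genes was 200 to 214 TPM in fAb, 217 to 229 TPM in oAb and 35.8 to 38.8 TPM in scramble libraries. Ebi3 made up 16.3 to 19.9% of this sum in fAb, 18.3 to 23.3% in oAb and 54.7 to 79.9% in scramble libraries. Il6 made up 27.9 to 34.9% in fAb, 26.9 to 31.9% in oAb and at most 0.221% in scramble libraries. Il6 and Il27 had the largest shares in each treated library, and Ebi3 in each control library.

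**Figure D3:**
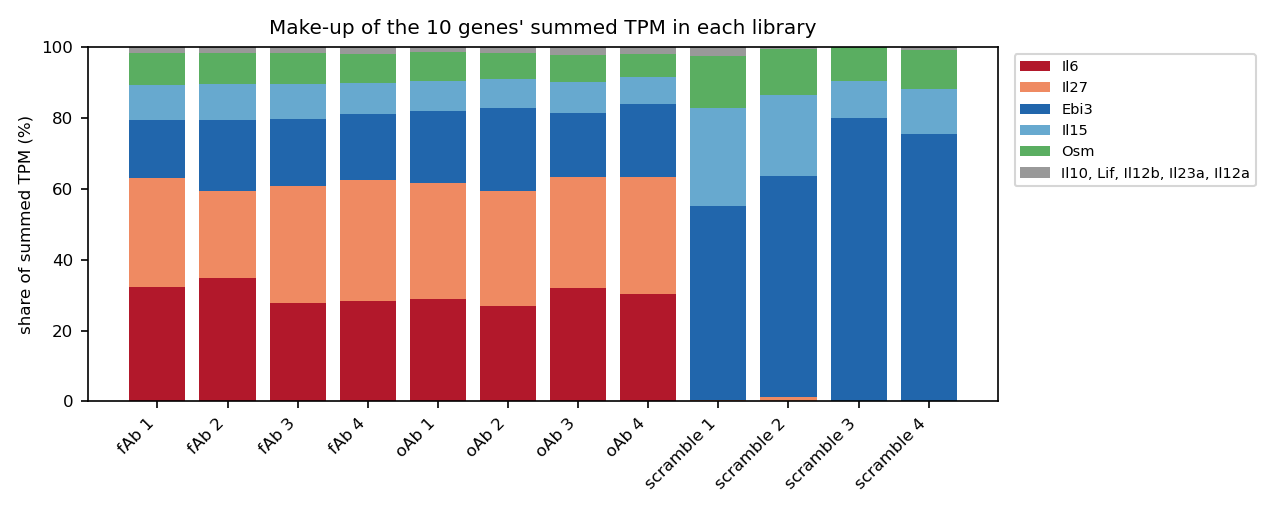
Stacked bars of the share (%) of each cytokine gene in the summed TPM of the 10 genes, 1 bar per library, with fAb on the left, oAb in the middle and scramble on the right. Il6 and Il27 are the largest shares of each treated bar, and Ebi3 fills 54.7 to 79.9% of each control bar.

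The receptors of these cytokines did not move as 1 group. Of 14 receptor genes, 7 were tested for fAb, with 3 higher and 2 lower, and 8 were tested for oAb, with 4 higher and 2 lower. Over all tested genes 27.6% were called higher and 28.8% lower for fAb, and 25.2% and 27% for oAb. The alpha chain of the IL-15 receptor, Il15ra, rose by 2.29 ± 0.24 on the log2 scale for fAb (adjusted p = 4.18e-05, edgeR) and by 2.17 ± 0.23 for oAb (adjusted p = 3.79e-05). It had 161 to 258 counts in fAb, 165 to 188 in oAb and 24 to 61 in scramble libraries, so ligand and presenting chain both rose. Il2rg, the common gamma chain, rose by 1.56 ± 0.10 for fAb (adjusted p = 1.77e-06) and by 1.52 ± 0.12 for oAb (adjusted p = 6.48e-06), although 30.5% of its exon length is shared with Gm20489 on the same strand and its counts are uncertain. Il2rb, the signalling beta chain, had no count in any library.

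The IL-6 receptor alpha chain went the other way. Il6ra was at 18.9 ± 0.583 TPM in fAb, 17.3 ± 1.4 TPM in oAb and 46.2 ± 13.3 TPM in scramble libraries (SD, n = 4 each), and it fell with a log2 fold change of -1.12 ± 0.13 for fAb (adjusted p = 9.91e-05, edgeR) and -1.20 ± 0.15 for oAb (adjusted p = 0.000106). Il6st, which encodes gp130, had log2 fold changes of -0.34 ± 0.21 (adjusted p = 0.2) and -0.42 ± 0.21 (adjusted p = 0.129). Both were called lower without scramble 3, at -0.53 (adjusted p = 9.23e-05) for fAb and -0.62 (adjusted p = 4.89e-05) for oAb. Il6st was also called lower for oAb with upper quartile scaling, at -0.59 (adjusted p = 0.0376). Within the set of scramble 1, the only control there, the values were -0.53 for fAb and -0.52 for oAb. Lifr, the LIF receptor, had no count in fAb libraries, 1 count over the oAb libraries and 6 to 12 counts per scramble library. It was at least 12.2-fold lower in fAb (a floor of 3 counts for the fAb libraries in all), and its ratio of oAb to scramble was 0.0304 (95% counting interval 0.000749 to 0.181). Osmr, the oncostatin M receptor, had no count in any library.

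Receptors of IL-10 and the IL-12 family changed little or were near the limit of detection. Il10ra, the ligand-binding chain, fell with a log2 fold change of -0.35 ± 0.08 for fAb (adjusted p = 0.00552, edgeR) and -0.43 ± 0.09 for oAb (adjusted p = 0.00225). Il10rb, its partner, was called higher at 0.29 ± 0.08 (adjusted p = 0.0114) and 0.33 ± 0.08 (adjusted p = 0.0074). With upper quartile scaling, which moved the median of all tested genes from -0.04 to -0.23 for fAb and from -0.07 to -0.24 for oAb, Il10rb was at 0.11 (adjusted p = 0.286) and 0.16 (adjusted p = 0.136). Within the set of oAb 1 and 2 it was at 0.29 (adjusted p = 0.121), and 14.9% of its exon length is shared with Gm21970. The split of all calls under that scaling was 2273 higher and 4361 lower for fAb, against 3051 and 3184 with TMM, and 2127 and 4015 for oAb, against 2777 and 2984. Il12rb1, a chain of the IL-12 and IL-23 receptors, rose by 1.57 ± 0.36 for oAb (adjusted p = 0.00502) and was untested for fAb, with 8 to 11 counts in fAb, 11 to 17 in oAb and 3 to 7 in scramble libraries. Within the set of oAb 1 and 2 it was at 1.47 (adjusted p = 0.0567). Within the set of oAb 3 and 4, where scramble 1 is the only control, it was at 2.34. It passed the filter only through the oAb libraries, so it had to differ to be tested. Il12rb2 was not called, at -0.28 ± 0.17 (adjusted p = 0.18) and -0.37 ± 0.20 (adjusted p = 0.146), and 40% of its exon length overlaps Serbp1 on the opposite strand. It was called lower without scramble 3, at -0.43 (adjusted p = 0.00252) for fAb and -0.52 (adjusted p = 0.00608) for oAb. It was also called lower with upper quartile scaling, at -0.47 (adjusted p = 0.0361) and -0.54 (adjusted p = 0.0391). Within the set of scramble 1, the only control there, the fAb value was -0.42.

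Counts of Il23r and Il27ra, the specific chains of the IL-23 and IL-27 receptors, were confined to treated libraries in these data. Il27ra had 2 to 7 counts per fAb library, 2 to 3 per oAb library and none in scramble. Il23r had 1 to 4 counts per fAb library, 2 to 8 per oAb library and none in scramble. Il27ra was at least 7.2-fold higher in fAb and at least 4.01-fold higher in oAb, and Il23r at least 3.6-fold higher in fAb and at least 6.93-fold higher in oAb, with the controls at a floor of 3 counts in all (exact permutation p = 0.0286 each, two-sided, the smallest possible). Groups that lie apart give this p, and they lay apart and higher for 27.4% of tested genes for fAb and 26.2% for oAb. Il11ra1, the IL-11 receptor, had 3 to 9 counts in fAb, 3 to 13 in oAb and 8 to 11 in scramble libraries. However, 46.3% of the Il11ra1 sequence is shared with other genes.

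Most of the relatives of these cytokines were silent. Of 16 other cytokines of the IL-6, IL-10 and common gamma chain families, 10 had no count in any library. Il7, a lymphocyte growth factor, had 12 to 22 counts in fAb, 7 to 21 in oAb and 2 to 3 in scramble libraries, and it rose by 2.92 ± 0.33 for fAb (adjusted p = 5.82e-05, edgeR) and was not tested for oAb. It passed the filter only through the fAb libraries and had to differ to be tested. Cntf was not called for fAb (0.79 ± 0.38, adjusted p = 0.101, but 1.00 and adjusted p = 0.0382 without fAb 2) or for oAb (0.38 ± 0.42, adjusted p = 0.474), and 78.9% of its exon length is shared with Zfp91.

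Downstream of the receptors, 8 of 9 JAK and STAT genes were tested, and 5 rose and 2 fell in each comparison. Their median log2 fold change was 0.92 for fAb and 0.89 for oAb beside -0.04 and -0.07 over all tested genes. Among all tested genes 27.6% were called higher and 28.8% lower for fAb, and 25.2% and 27% for oAb. The kinase gene Jak2 rose by 2.93 ± 0.18 for fAb (adjusted p = 1.37e-06, edgeR) and 2.88 ± 0.19 for oAb (adjusted p = 2.09e-06). Stat3, the main carrier of IL-6 and IL-10 signals, rose by 1.19 ± 0.10 and 1.18 ± 0.11, and Tyk2 by 1.21 ± 0.11 and 1.39 ± 0.10. Both genes that fell encode STAT5 proteins, with Stat5a at -0.47 ± 0.09 for fAb and -0.44 ± 0.10 for oAb and Stat5b at -0.49 ± 0.11 and -0.46 ± 0.15.

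Of 8 feedback regulators, 7 were tested for fAb, with 3 higher and 1 lower, and 6 for oAb, with 2 higher and 1 lower. The medians were 0.14 and 0.10. Calls in either direction covered 56.3% of all tested genes for fAb and 52.2% for oAb, and this list lay near those shares. Socs3, which blocks gp130 signalling, had 3134 to 3726 counts in fAb, 2922 to 3613 in oAb and 149 to 176 in scramble libraries. It rose by 4.31 ± 0.16 for fAb (adjusted p = 5.51e-08, edgeR) and 4.38 ± 0.17 for oAb (adjusted p = 4.43e-08). Socs1, an inhibitor of JAK kinases, rose by 3.65 ± 0.53 (adjusted p = 0.000328) and 4.63 ± 0.78 (adjusted p = 0.000869). Socs1 had 16 to 27 counts in fAb libraries and 0 to 3 in scramble libraries. Its oAb counts followed the library set, with 63 and 67 in oAb 1 and 2 and 15 and 23 in oAb 3 and 4. The log2 difference of Socs1 for fAb against oAb was -1.02, and 0.19 with a term for the library set. Within the set of scramble 1 that only control had no count, so the fitted size depends on the prior count and none is given. Cish rose by 2.33 ± 0.34 for fAb (adjusted p = 0.000322) and was not tested for oAb, with 11 to 15 counts in fAb, 7 to 17 in oAb and 1 to 4 in scramble libraries. Socs1 and Cish passed the filter only through the treated libraries, so both had to differ to be tested, and the counts of calls in this list include them as a description. Pias3, a STAT3 inhibitor, fell in both, with adjusted p = 9.22e-05 for fAb and with a log2 fold change of -1.11 ± 0.12 for oAb (adjusted p = 5.38e-05).

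Of 8 genes known to respond to STAT3, 6 rose and 0 fell in each comparison, with medians of 0.89 for fAb and 0.90 for oAb. Among all tested genes 27.6% were called higher for fAb and 25.2% for oAb. The kinase gene Pim1 rose by 3.15 ± 0.10 (adjusted p = 1.81e-08, edgeR) and 3.14 ± 0.10 (adjusted p = 1.21e-08). Il4ra, a receptor chain for IL-4 and IL-13, rose by 1.25 ± 0.09 and 1.21 ± 0.10. Bcl3, a nuclear partner of NF-kB, rose by 1.92 ± 0.28 and 2.26 ± 0.32, and by 2.83 for fAb within the set of scramble 1. The list also holds Cebpd and Junb, which were not called.

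Among 11 transcription regulators of these cytokine genes, 7 rose and 1 fell for fAb, and 7 rose and 0 fell for oAb. Their medians were 1.07 and 1.29. The shares over all tested genes were 27.6% higher and 28.8% lower for fAb, and 25.2% and 27% for oAb. Maf, an activator of Il10, rose by 4.48 ± 0.16 for fAb (adjusted p = 2.97e-08, edgeR) and 4.56 ± 0.16 for oAb (adjusted p = 2.59e-08), with 367 to 439 counts in fAb, 365 to 430 in oAb and 15 to 21 in scramble libraries. Irf1 rose by 1.98 ± 0.09 and 1.85 ± 0.09, and Atf3, a repressor of Il6, by 1.93 ± 0.08 and 1.89 ± 0.09. Of 7 regulators of cytokine mRNA decay, 4 rose and 2 fell for fAb, and 4 rose and 1 fell for oAb. Their medians were 0.57 and 0.44, and the same shares over all tested genes stand beside these counts. Zc3h12a, whose product regnase-1 cuts the Il6 transcript, rose by 3.02 ± 0.15 (adjusted p = 3.28e-07) and 3.22 ± 0.15 (adjusted p = 1.91e-07), and Zfp36, encoding tristetraprolin, by 1.74 ± 0.16 and 1.85 ± 0.15. Zfp36l1, of the same family as Zfp36, fell, at -1.96 ± 0.17 (adjusted p = 1.31e-05) and -1.77 ± 0.17 (adjusted p = 2.48e-05), with 55.9% of its exon length overlapping Gm26669 on the opposite strand.

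**Figure D4:**
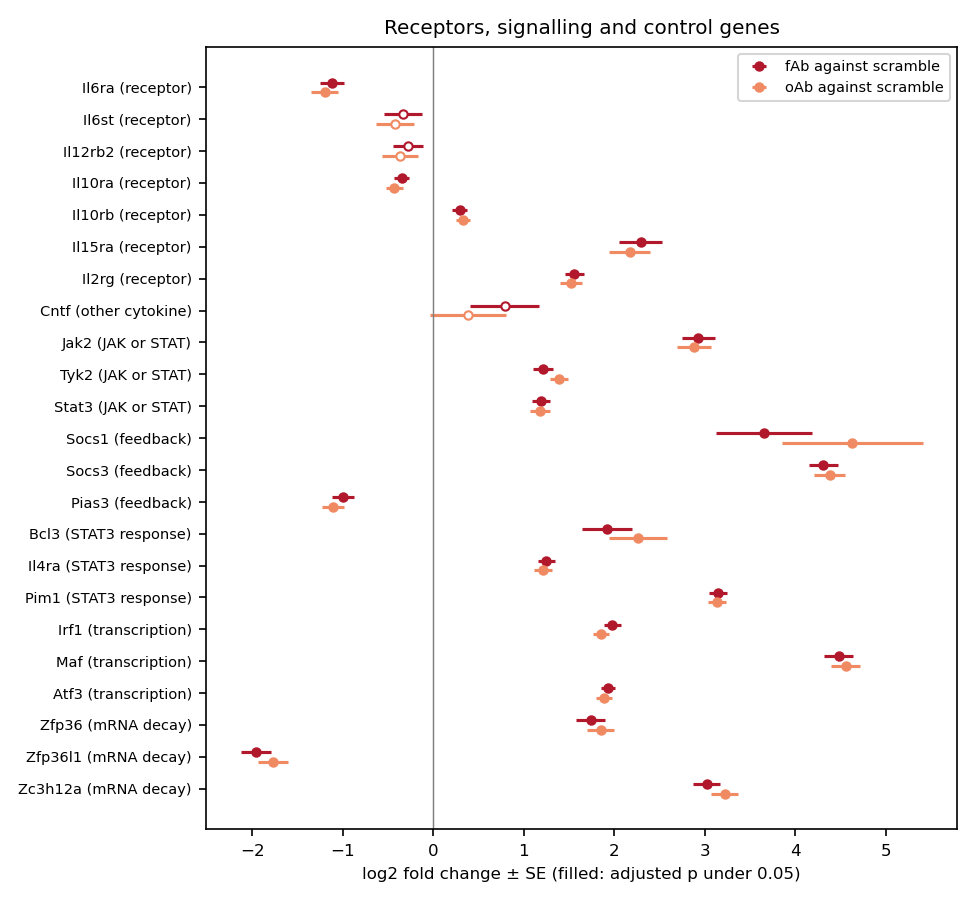
Log2 fold changes with SE (bars) for named receptor, signalling, feedback, transcription and mRNA decay genes tested in both comparisons, for fAb and oAb against scramble, with filled points at an adjusted p under 0.05. Il6ra, Il10ra, Pias3 and Zfp36l1 lie below 0 with filled points in both comparisons, and Socs3 lies at 4.31 and 4.38.

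The genes whose log2 CPM followed each member most closely over the 12 libraries, out of 10414 candidates, were mainly other genes that separate treated from control libraries. For Il6 these were Nos2 (Pearson r = 0.9995), Ifi204 (0.9993) and Gbp5 (0.9993). For Il27 the closest was Cd40 (0.9989), for Osm Tmed2 (0.9972), for Lif Sdccag3 (0.9941), for Il15 Lilr4b (0.9930), for Il10 Cav1 (0.9834) and for Ebi3 Snx20 (0.9770). The points share libraries and the difference between treatment and control. Over the 8 treated libraries alone, r was 0.11 for Il6 with Nos2 and 0.92 for Ebi3 with Snx20. These values are descriptions.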

How the data were processed

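The 12 libraries of IMG cells were prepared with a stranded kit for mRNA after spin-column extraction, per the labels' protocols. The submitters' processing notes name mm10 as build. Aligner, counter and use of strand are not given in the sources used. The 2 tables deposited by the authors hold 41325 genes, with whole-number counts, RPKM and TPM per gene, per the file headers. Deposited columns headed CPM, a signal whose sums differ between libraries, were not used. The 4 control columns were equal in both tables. Tests used the deposited counts in edgeR 4.0.16 (R 4.3.3): filterByExpr with a minimum count of 10, TMM, the robust quasi-likelihood test and Benjamini-Hochberg adjustment over all tested genes, threshold 0.05, with only the 2 groups compared in each fit. Standard errors are the log2 fold change over the square root of F. CPM in the text are TMM-normalised over 12 libraries. Single values were compared by exact permutation. The script was tested on simulated data. Overlaps came from GENCODE M21. Total counts of 13638721 to 18124419 per library set the precision, and intervals and floors cover counting error only. The subunit ratio was recomputed from deposited RPKM. DESeq2 1.42.0, other scalings, filters, library sets and left-out libraries were alternatives. All 10 members were named, with all receptors and the 3 tested genes of smallest adjusted p per comparison in each other list, of which 1 is not reported here. The members and lists were chosen with earlier results of these data known.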

Additional observations from a re-analysis of the deposited data

Results flagged for a closer look

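Il15 in oAb library 4 was at 17.1 TPM, where the nearest of the other 3 oAb libraries was at 18.9 TPM. The gap was 0.871 of the range of the group, above Dixon's 95% critical value for 4 libraries. In 20 groups tested, chance flags about 1 in 20. The value remained above each scramble library, whose highest was 10.3 TPM.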

How the results depend on the processing

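Of 117 refitted values of the members for fAb against scramble, 113 kept their direction and side of the threshold. The other 4, all of Ebi3, did not pass it. For oAb against scramble 124 of 124 kept their direction and side. These tallies include Il6, Il27, Il10 and Lif, which passed the filter only through the treated libraries and so had to differ to be tested. The refits also reuse the same libraries, and some hold scramble 1 as the only control, so the tallies are a description. In fAb against oAb no alternative called a member, and Osm ranged from -0.02 (without oAb replicate 4, adjusted p = 0.952) to 0.09 with libraries left out in turn. Cntf for oAb against scramble turned to -0.03 (adjusted p = 0.975) within the set of oAb 1 and 2. When the fit held a term for the library set, 3844 genes were called for fAb (2020 higher, 1824 lower), where scramble 1 is then the only control in the set of the fAb libraries. Within the set of oAb 1 and 2, 3792 genes were called for oAb (1976 higher, 1816 lower), with fewer libraries. DESeq2 called 16 genes for fAb against oAb, and the cause was not tested. Leaving out each library in turn gave 5517 to 7598 genes and 6 to 7 members called for fAb against scramble, 4962 to 7174 genes and 7 members for oAb against scramble, and 0 of either for fAb against oAb. Correlations of same-numbered deviations from the group means ran from -0.25 to 0.24. These deviations also carry the library sets and the distance of scramble 3, so low values cannot exclude that replicate numbers pair the libraries. With the replicate number as a block, 6292 genes were called for fAb, 5081 for oAb and 0 for fAb against oAb, with 7, 7 and 0 members. Without scramble replicate 2, which held the only Il6 count and 2 of the 3 Il27 counts among controls, fitted folds of Il6 and Il27 depend on the prior count and none is given. Depth limits Il12a, Il12b, Il23a, Il10 and Lif, which had at most 26 counts in any library.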

Other observations

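Within the oAb group, Il12b had 3 and 5 counts in oAb 1 and 2 and 14 and 11 counts in oAb 3 and 4, which belong to different library sets. Some regulators of these genes, chosen after their values were seen, split along the same sets but in the opposite direction. Cebpb was at 73.3 and 84.6 CPM in oAb 1 and 2 and at 20.8 and 23.1 CPM in oAb 3 and 4, where fAb libraries lay between 22.4 and 26.8 CPM. Among controls, Cebpb was at 4.14 CPM in scramble 1 and between 14.5 and 30.8 CPM in scramble 2, 3 and 4. Junb was at 233 and 246 CPM in oAb 1 and 2 and at 39.1 and 66.7 CPM in oAb 3 and 4, and at 19.1 CPM in scramble 1 against 96.5 to 129 CPM in the other controls. Cebpd had the same order, with 32.1 and 34.1 CPM in oAb 1 and 2 and 5.05 and 7.63 CPM in oAb 3 and 4. Il6 had the order of Il12b, with a smaller difference, at 56.4 and 56.5 CPM in oAb 1 and 2. It was at 64.2 and 62.4 CPM in oAb 3 and 4. The fAb libraries, all in the set of oAb 3 and 4, held Il6 at 49.8 to 61.1 CPM, on both sides of oAb 1 and 2. They had 7 to 11 counts of Il12b. These differences were not tested.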
